A study of Mus musculus with 36 samples.

Results

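The low-methylation domains described here were the 100-kb stretches of the mouse autosomes with the lowest DNA methylation in liver. The autosomes were divided into bins of 100 kb, CpGs in 500-bp windows of 15 or more CpGs were set aside, and the methylated and unmethylated read counts of the remaining CpGs were summed over 24 animals. Of 23919 bins with at least 100 such CpGs, the 1195 with the lowest percent methylation (5%) were taken as domains. The domains were thus chosen by their measured methylation over all animals, so their low level is a description and no test applies to it.

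Livers were taken from 24 mice aged 20 weeks and analysed by whole-genome bisulfite sequencing, in which unmethylated cytosines are read as thymine. The parents were C57BL/6N (B6) and C3H/HeN (C3) males and females, with 3 sires and 3 dams of each strain. The offspring were 3 sons and 3 daughters of each reciprocal cross, B6C3F1 (B6 mother, C3 father) and C3B6F1 (C3 mother, B6 father). Dams had been mated and had borne litters, whereas daughters were virgin, so sex, parity and generation are joined in some comparisons. Parents were of inbred strains and offspring were hybrids, so genotype is joined with generation wherever parents and offspring are compared. By the study's methods the animals were families of a sire, a dam, a son and a daughter, so dams and daughters were mothers and their young, and sons and daughters were siblings. Whole liver is a mixture of cell types.

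CpG methylation is a stable mark that covers most CpGs of somatic tissue and is usually absent from active or poised promoters. Large partly methylated domains, in which methylation is incomplete over long distances, are known from cultured, cancer and placental cells, and often hold few genes. Long unmethylated stretches over developmental regulators, kept in that state by Polycomb complexes in many tissues, are a different kind of low-methylation region.

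The data went against a single partly methylated class. The lowest domains, apart from 1 with a mitochondrial match, held many unmethylated CpGs and lay over Hox clusters and other regulatory genes, and the long runs of domains were partly methylated and lay mostly over multicopy gene families. Hepatocyte genes and clustered histone genes also had a large share of their starts in domains. The members are therefore called low-methylation domains, or domains.

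Reference sequence around single CpGs is shown to let the setting of both kinds be seen beside the most methylated bins. Each is the CpG nearest the middle of its bin with 60 bases on either side, on the plus strand of mm9, and capitals mark the CpG and the base before and after it. The 4 run sequences come from the lowest domain of long runs and were chosen after the values were seen.
Lowest domain, chr1:24650018-24650139: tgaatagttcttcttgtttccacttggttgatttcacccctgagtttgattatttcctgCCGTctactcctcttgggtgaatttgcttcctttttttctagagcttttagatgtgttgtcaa
Hoxd domain, chr2:74550455-74550576: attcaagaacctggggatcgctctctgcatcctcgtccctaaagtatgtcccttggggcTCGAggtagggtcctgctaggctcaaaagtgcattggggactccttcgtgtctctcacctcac
Hoxa domain, chr6:52149916-52150037: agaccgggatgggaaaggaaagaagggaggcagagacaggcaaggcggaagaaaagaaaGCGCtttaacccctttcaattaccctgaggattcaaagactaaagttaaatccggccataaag
Highest bin, chr9:100750070-100750191: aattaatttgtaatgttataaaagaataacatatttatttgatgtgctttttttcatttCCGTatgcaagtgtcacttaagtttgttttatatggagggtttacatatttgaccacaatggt
Second highest bin, chr10:39549638-39549759: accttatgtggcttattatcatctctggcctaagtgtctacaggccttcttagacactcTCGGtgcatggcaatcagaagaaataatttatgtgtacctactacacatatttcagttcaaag
Vmn2r pseudogene and Zfp640 run, chr13:66449986-66450107: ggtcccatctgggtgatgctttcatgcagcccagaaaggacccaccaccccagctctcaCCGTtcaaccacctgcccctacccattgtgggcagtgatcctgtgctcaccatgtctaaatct
Immunoglobulin heavy chain run, chr12:116049787-116049908: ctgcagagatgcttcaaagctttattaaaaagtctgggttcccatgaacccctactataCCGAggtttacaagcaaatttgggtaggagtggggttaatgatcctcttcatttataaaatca
Vmn2r and Vmn1r run, chr7:10550062-10550183: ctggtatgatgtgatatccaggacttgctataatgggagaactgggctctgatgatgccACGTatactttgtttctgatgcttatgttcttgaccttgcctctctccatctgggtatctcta
Run of Gm genes, chr14:42750016-42750137: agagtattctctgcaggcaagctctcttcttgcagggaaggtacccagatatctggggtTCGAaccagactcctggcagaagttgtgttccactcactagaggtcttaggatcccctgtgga
The CpG shown in the Hoxd domain, inside the gene Hoxd3, was methylated in 4 of 475 reads (0.842%), and 3 other CpGs lay in its 122 bases. The CpG shown in the Hoxa domain, inside Hoxa3, was at 43.8% of 728 reads. In the highest bins the CpGs shown, inside Stag1 and Rev3l, were at 96.0% and 97.7%, with no other CpG in the window. The CpG of the receptor run on chromosome 7 was at 71.4% of 828 reads, with animals between 54.5% and 83.3%. The CpG of the immunoglobulin run was at 12.5% of 480 reads. Only 30 reads covered the CpG of the chromosome 13 run, none of them methylated. The CpG in the middle of the lowest domain was at 85.3% of 543 reads, far above the 17.4% of its bin.

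Over the 789105 CpGs in domains the level was 67.6% ± 0.485 (SD, n = 24 animals), with animals between 66.5% and 68.5%. The other bins held 15801753 CpGs at 80.5% ± 0.479, with animals between 79.5% and 81.5%. Single domains ranged from 17.4% to 71.6% with a median of 69.5%, against a median of 79.7% in the other bins. Thus most domains sat close to the threshold and few were far below it. The last domains inside it, on chromosomes 1 (from 106000001) and 7 (from 55600001, over Mrgprb8), were at 71.6%, and the first bins outside it, on chromosomes 8 (from 61300001, over Galntl6) and 3 (from 90700001), were at 71.6% as well.

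The composition of the domains differed from that of all other bins pooled across the whole range of CpG levels, as the choice in part required. Shares of CpGs by level cover only CpGs with at least 100 reads over the animals together. The next 5% of bins were closer, with a mean of 47.1% of CpGs between 20% and 80%, against 47.0% in domains. Their mean share of CpGs under 20% was 4.05%, against 8.57% in domains. CpGs under 10% methylation made up 6.02% of CpGs in domains and 1.50% elsewhere, and CpGs at 90% or more made up 25.7% and 43.2%. When CpGs under 20% were left out of every domain, 782 domains rose above the threshold and 413 stayed below it. The 782 had a median of 10.6% of their CpGs under 20%, 1 median coding start and a median of 7 CpG-dense windows. They were mixed too, since a domain just inside the threshold can cross it with few such CpGs. Of the 782, 87 had under 2% of their CpGs under 20%. The 413 had a median of 2.13% of their CpGs under 20%, 60.1% between 20% and 80%, and 1 dense window. The 413 were not of 1 sort, since they also held the Hox domains, which stayed low without those CpGs. This division uses the levels that chose the domains and is given as a description.

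**Figure D1:**
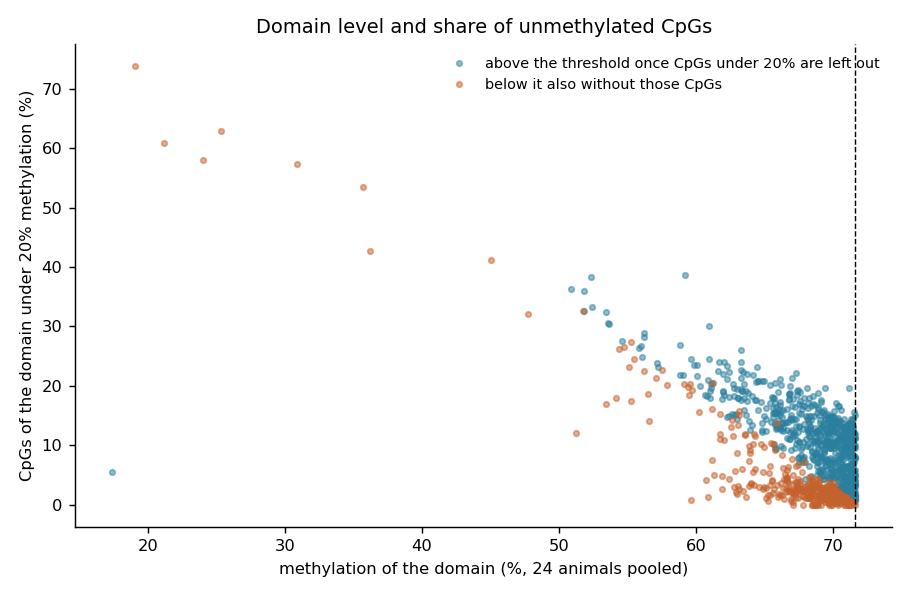
Each point is a domain, with its methylation over 24 animals on the x axis (%) and the share of its CpGs under 20% methylation on the y axis (%), coloured by whether it stays below the threshold (dashed line, 71.6%) without those CpGs. The points far to the left and high are the Hox domains and the others of the 10 lowest, the point at the lower left is the bin with the mitochondrial match, and the cloud at the lower right holds the partly methylated domains.

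Few domains were low along their whole length. Each domain was cut into blocks of 10 kb. A median of 5 blocks was at or below the threshold in all domains, and 7 in the 413. All blocks with enough CpGs were low in 28 of 1195 domains. The highest block of a domain had a median of 80.5%, and the highest block of other bins had a median of 87.3%.

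The 10 lowest domains ranged from 17.4% to 47.7%. The Hoxd cluster, whose homeodomain factors pattern the body axis and limbs, lay in chr2:74500001-74600000 at 19.1%, with animals between 17.8% and 20.2%. The Hoxa domain (chr6:52100001-52200000) was at 21.2%, with animals between 18.97% and 23.04%. The Hoxb domain (chr11:96100001-96200000) was at 24.1%, with animals between 21.7% and 25.9%. All 10 of the 10-kb blocks were low in these 3 domains, and 73.8%, 60.9% and 57.9% of their CpGs were under 20%.

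The Hoxc cluster spread over 2 neighbouring domains on chromosome 15, at 25.3% from 102800001 and 35.7% from 102700001. Zic1 and Zic4, zinc finger factors of the developing brain, lay in chr9:91200001-91300000 at 30.9%. Cdkn2a and Cdkn2b, which encode cell cycle inhibitors, lay in chr4:88900001-89000000 at 36.2%. A domain over Tcfap2b, a factor of neural crest and kidney development, was at 45.1% (chr1:19200001-19300000, no coding start inside). The domain of Nr2f1, a nuclear receptor of neural development, was at 47.7% (chr13:78300001-78400000). Each of these was low in all 24 animals, and the Zic1 and Zic4 domain had the widest range among them, from 28.3% to 33.5%.

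The lowest bin of all was of another sort. It lay at chr1:24600001-24700000 with Lmbrd1, Gm10222 and Gm10925 starting inside, and its level was 17.4%. It held 4649 bases that match the mitochondrial genome exactly in stretches of 31 bases. Its mean depth was 131 reads per CpG and animal, against a median of 26.9 over domains. Only 5.46% of its CpGs were under 20%, and 3 of 9 blocks were low, so deeply read CpGs set its pooled level. Animals ranged from 11.6% to 35.1%, more than in any of the other 9 of the 10 lowest. The part of mitochondrial reads in this value was not tested. Depth was under 10 reads per CpG in 54 of the 1195 domains, 47 of them in the 413, against 100 of 22724 other bins, and over 60 in 9 domains and 17 other bins.

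Most domains stood alone. The domains formed 858 runs, of which 686 were single domains, and 509 domains (42.6%) had a neighbouring domain. Counting each domain's neighbours on both sides, 674 of 2365 eligible neighbours (28.5%) were domains themselves, beside 5.00% of all bins. The longest run had 14 bins, and 67 runs had 3 or more. Chromosome 7 held 194 domains, 13.7% of its bins, and chromosome 16 held 13, 1.36% of its bins.

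Most of the long runs described here lay over gene families that have many close copies, so reads there can be shared between copies. The longest (chr13:65500001-66900000) was at 69.1%, held vomeronasal receptor pseudogenes such as Vmn2r-ps104 and the zinc finger gene Zfp640, and had 17.3 reads per CpG. A run of 10 bins on chromosome 12 (115400001 to 116400000) was at 66.0% and held 43 immunoglobulin heavy chain variable segments, which B cells join to make antibodies. A run of 9 bins on chromosome 7 (10400001 to 11300000) was at 69.3% with 15 coding starts, among them Vmn2r47 to Vmn2r52 and Nlrp4d. In these 3 runs only 2.25% to 2.59% of CpGs were under 20%, while 58.4% to 64.8% were between 20% and 80%.

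In the 6 runs of 7 bins, 1.95% to 4.73% of CpGs were under 20%, and 55.8% to 64.3% were between 20% and 80%. On chromosome 7 they held Vmn2r41 to Vmn2r45 (66.7%), the oocyte homeobox genes Obox1 to Obox3 (69.9%), Vmn1r167 to Vmn1r181 with Nlrp5 (68.5%) and the Mrgpr sensory receptors (69.6%). The run on chromosome 14 (from 42100001) held 16 coding genes known mainly by Gm symbols and was at 68.9%. The run on chromosome 17 (from 93400001) held Adcyap1 as its only coding start, which encodes a neuropeptide, and was at 68.5%. Among the 6-bin runs, that over Pcdhb genes on chromosome 18 was at 64.5% and that over Snrpn, an imprinted gene, on chromosome 7 was at 67.0%.

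**Figure D2:**
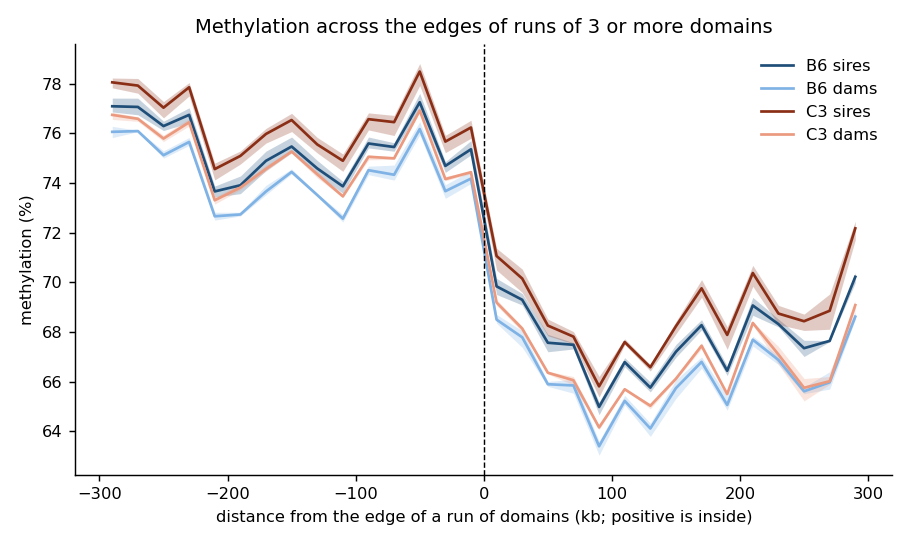
Mean methylation of CpGs (%) in 20-kb steps across the edges of the 67 runs of 3 or more domains, for the B6 and C3 parents, with the range over 3 animals as shading. Each line falls at the edge, in the first B6 sire from 75.2% outside to 69.8% inside, as the choice of bins required, and the dams lie below the sires on both sides.

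The fall at the edges was part of the choice. In the last 20 kb outside the runs, B6 sire 1 had 75.2% and B6 dam 1 had 74.0%, and in the first 20 kb inside they had 69.8% and 68.4%. Outside, the levels at 280 to 300 kb were 77.0% and 75.8% in the same animals, so the flanks of runs were themselves below the median of other bins.

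Gene starts were more frequent in domains than elsewhere. Of the domains, 28.4% held no protein-coding start, against 57.9% of other bins, and the mean was 1.74 against 0.848 starts. Of the 413 that stayed low without their unmethylated CpGs, 40.7% held none. The bodies of coding genes went the other way, covering a mean of 34.4% of the bases of domains and 39.8% of other bins. In the 413 that mean was 22.8%. Coding-gene exons covered a mean of 4.27% in domains, 3.03% in other bins and 2.48% in the 413. All protein-coding genes with a start in an eligible bin numbered 21344, and 9.75% started in a domain, so shares of gene groups are to be read against that. Of the 2080 starts in domains, 513 lay in the 413. Neighbouring genes can share a domain, so the genes of a group are not independent members.

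Of 119 homeobox, Sox and T-box genes 71 (59.7%) started in domains, 36 in number. The bins of the 119 had a median of 65.4%, against 79.1% for all coding genes. Of these 71, 45 were in the 413. Of 67 clustered histone genes, which supply the histones of replicating chromatin, 49 (73.1%) did so, in 5 domains with the lowest at 53.4% (Hist1h1d and neighbours). Cadherin and protocadherin genes had 27 of 56 (48.2%), in 9 domains, and the lowest of these, with the starts of Pcdhb7 to Pcdhb12, was at 62.4%.

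Genes with high expression in hepatocytes were another group with a large share. Of 56 hepatocyte genes 34 (60.7%) started in domains, 22 in number. Of the 34, 28 were in the 782 that rose above the threshold without CpGs under 20%. For all coding genes, 1567 of the 2080 starts in domains lay in the 782. The fibrinogen genes Fga, Fgb and Fgg shared a domain at 55.2%, with animals between 51.9% and 58.0%. Other groups with genes known for expression in liver had smaller shares. Cyp, Ugt, Gst and Sult genes, which metabolise drugs and steroids, had 15 of 156 (9.62%), and major urinary protein genes 0 of 14. Serpin genes had 11 of 59 (18.6%). The groups were not tested against each other.

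Vomeronasal receptor genes, which detect pheromones, had 104 of 309 starts in 68 domains (33.7%), 87 of the starts in the 413. Interferon alpha genes had 7 of 16, all in 1 domain, and Ceacam genes 7 of 15, in 5 domains. Olfactory receptor genes had 103 of 1106 (9.31%), close to all genes, in 34 domains. Zfp zinc finger genes had 19 of 362 (5.25%) and ribosomal protein genes 8 of 138 (5.80%), both below all genes. C-type lectin and killer receptor genes had 10 of 57 (17.5%), the lowest of them Clec4f, a Kupffer cell lectin, in a domain at 56.0%, with its own promoter at 87.9%. Immunoglobulin variable segments had 146 of 347 starts in domains (42.1%).

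**Figure D3:**
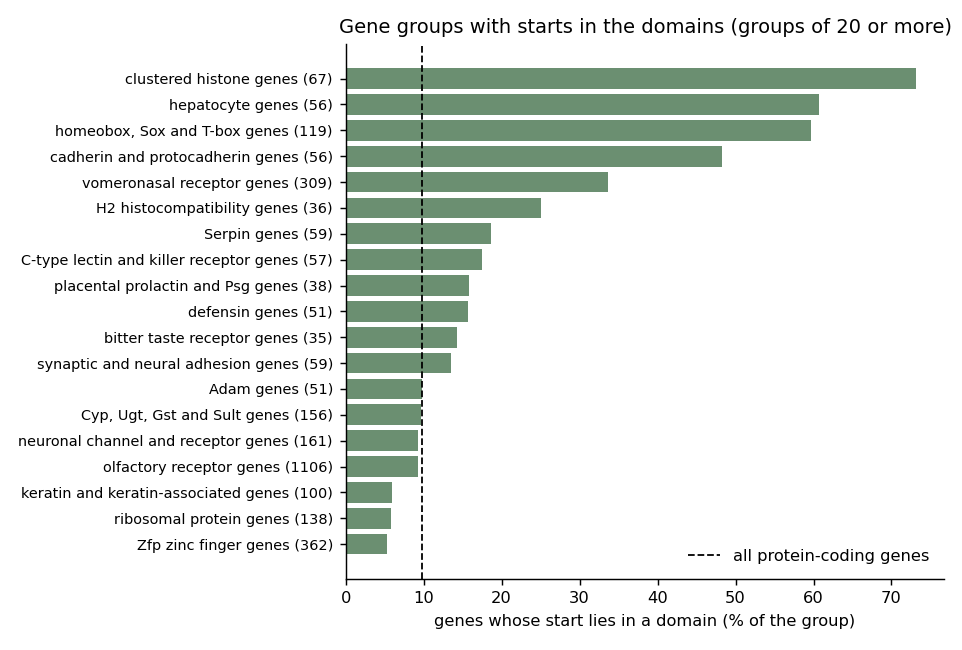
Share of the genes of each group whose start lies in a domain (x axis, %), for groups of 20 or more genes (their number in brackets), with the share of all protein-coding genes as a dashed line at 9.75%. Histone, hepatocyte and homeobox groups lie above 50%, and zinc finger, ribosomal and keratin groups lie below the line.

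Genes whose body touched most domains were mixed in kind. Pcdha11, Rbfox3, a neuronal splicing regulator, Obox3, Dok6 and Nrg3, which encodes a neuregulin, each touched 3 domains, as did Gm3358, Gm3383 and Gm20388, whose body touched 45 bins. Their domains averaged between 65.9% (Pcdha11) and 70.8% (Nrg3). Hoxc10 and Hoxb3 each lay across the border of 2 domains, which averaged 30.5% and 43.6%.

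The promoters of cell type markers were read as a check of the labelled tissue. The start is that of the GENCODE gene record, here and in the counts of gene starts, and is not always the main promoter in liver. Promoters (500 bp on either side of the start) of 10 hepatocyte genes were between 16.4% and 59.0% with a median of 20.9%. Those of 4 Kupffer cell and 4 leukocyte genes were between 75.3% and 87.9%, and of 5 endothelial genes between 2.24% (Kdr) and 79.8%. Those of 6 cholangiocyte and stellate cell genes were between 0.644% (Reln) and 68.8% with a median of 12.4%, and those of 5 genes of other tissues between 26.9% (Gfap) and 85.8% with a median of 77.1%. The hepatocyte promoters were low, with Serpina1a the highest, and so were some of the cholangiocyte and stellate cell genes. The hepatocyte promoters held 4 to 18 CpGs, whereas the low promoters of Reln, Sox9, Des, Lrat and Kdr held 61 to 149. Epcam, at 22.7%, held 30. The part of CpG number in these levels was not tested.

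The level also went with the bases beside the CpG, in domains and elsewhere. CpGs with A or T on both sides were at 61.8% in domains and 75.1% in other bins. CpGs with C or G on both sides were at 71.7% and 85.5%. Within animals the difference between these classes was 9.93 ± 0.486 points in domains and 10.4 ± 0.461 points elsewhere (SD, n = 24). CpGs with A or T on both sides and no neighbour within 35 bp were at 59.6% in domains and 72.0% elsewhere. For CpGs with C or G on both sides and 3 or more neighbours the levels were 66.0% and 85.7%. In domains this crowded class lay below the isolated class of the same flanks (73.9%). With A or T on both sides and 3 or more neighbours the levels were 61.9% and 81.1%. For those flanks the crowded class lay above the isolated class in domains too.

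CpG-dense windows, which the choice of domains left out, were more frequent in domains. There were 7.77 windows per domain and 3.60 per other bin, and 62.9% of those in domains were under 20% against 40.9% elsewhere. Over 10 kb from a coding start the windows in domains had a median of 49.9% and those elsewhere 89.9%. Within 1 kb of a start the medians were 1.69% and 0.699%. Thus the lower level of dense windows in domains lay mainly away from starts. The 5 windows with most CpGs, at Mex3d, Paqr9, Nfix, Papd7 and Samd1, had 93 to 96 CpGs and were at 1.34% or below in every animal.

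Group means over all domains were close together. They were 66.6% ± 0.115 in B6 dams and 67.6% ± 0.204 in B6 sires, and 67.7% ± 0.111 in C3 dams and 68.3% ± 0.404 in C3 sires (SD, n = 3 each). The F1 groups lay between 67.5% and 67.8%. In the other bins too the lowest and highest group means were those of B6 dams (79.6% ± 0.140) and C3 sires (81.3% ± 0.271). The crosses were ordered differently, with B6C3F1 below C3B6F1 in domains (67.5% and 67.7%) and above it in other bins (80.7% and 80.5%). The gap between other bins and domains was 13.0 ± 0.248 points over the 24 animals. Single domains varied more between animals of a group than other bins did, with a median SD of 0.683 against 0.464 points, while the next 5% of bins had 0.603.

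**Figure D4:**
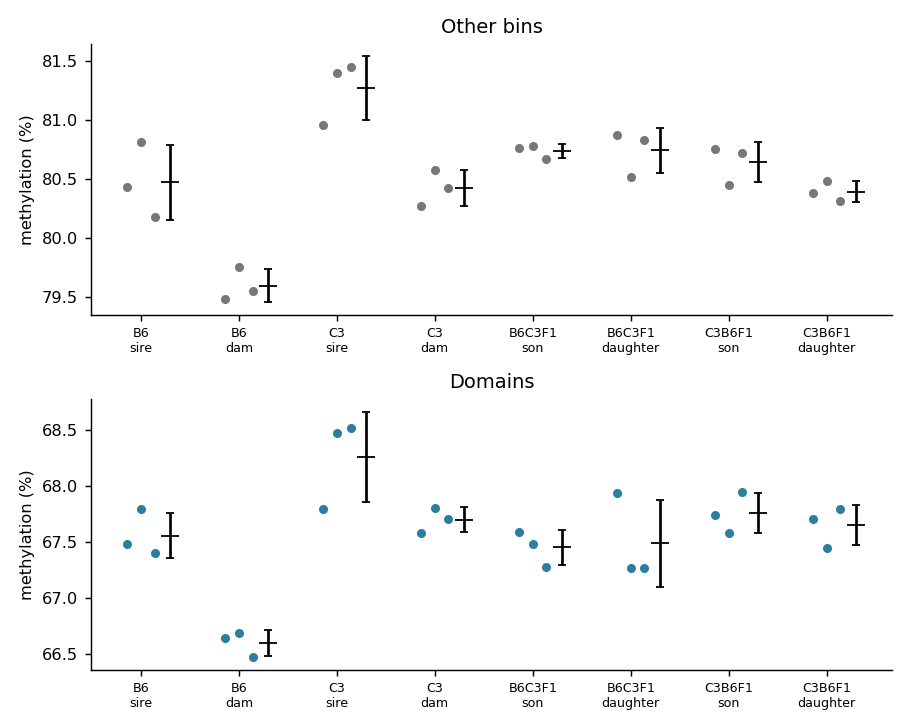
Methylation (%) of each animal over other bins (upper) and domains (lower), by group, with the mean and SD of 3 animals beside the points. The mean of dams lies below that of sires of their strain in both panels, although 1 C3 dam (67.80%) lies just above 1 C3 sire (67.79%) in domains, and the means of the F1 groups lie between those of B6 dams and C3 sires.

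Differences between groups were tested for every bin with limma, and a call means an adjusted p below 0.05 with no minimum size. The domains were chosen on all animals together, so a bin that is low in 1 group only can be a domain through that group, and such a difference is not independent of the choice. Several comparisons share animals, so they are given side by side. Where an animal is left out or a quasi-binomial model is used, only counts of domains are given, without the share of all bins. Between C3 and B6 parents 734 of 1195 domains were called (61.4%), 623 higher and 111 lower in C3, beside 67.6% of all bins (62.7% higher, 4.93% lower). The median difference was 0.948 points in domains and 0.828 points in all bins. On the log2 scale of the test the order was reversed, at 0.0653 in domains and 0.0764 in all bins. When each animal was centred on its median bin, which removes the shift shared by all bins, 449 domains were called (beside 41.9% of all bins), 183 higher and 266 lower. Of all 23916 bins, 5951 were then called higher and 4068 lower. With dense windows kept, both in the choice of domains and in the counts tested, 268 were called (22.4%), beside 53.4% of all bins.

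Calls with at least 3 points were made in 77 domains (6.44%), 42 higher and 35 lower in C3, beside 2.23% of all bins. The F1 mean lay between the strain means in 77 of these 77. Its position was a median of 0.394 of the way from B6 to C3. The F1 animals were counted in the choice of domains, so this position is not independent of the choice. For the other bins called at this size it is not given. The 77 held a median of 1.82 listed SNVs per kb, against 0.220 in the other domains. All SNVs listed for the local strain genomes were counted, without a check that the strains differ from each other at each. In other bins called at this size the median was 2.25, against 0.240 in all other bins. The 77 had a median of 22.0 reads per CpG in C3 and 28.6 in B6. The part of SNVs and depth in the difference was not tested.

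The domain on chr9:74800001-74900000, where BC031353 and Arpp19, a phosphatase inhibitor of mitosis, start, was higher in C3. The C3 animals had 72.2% at the lowest, 74.8% at the median and 76.1% at the highest, and the B6 animals 65.6%, 67.3% and 68.4%. The groups did not overlap, as the rule for naming domains required. The difference was 7.46 points (log2 ratio 0.52 ± 0.03, SE, limma adjusted p = 3.74e-23). All C3 animals lay above the threshold of 71.6%, so the bin was a domain through the others. The domain on chr7:46400001-46500000 was 5.98 points higher in C3 (limma adjusted p = 2.80e-19), and there too all C3 animals lay above the threshold.

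In the opposite direction the domain of Gm10772 (chr13:66300001-66400000), within the longest run, had 63.2%, 65.2% and 67.5% in C3 and 74.8%, 76.1% and 77.9% in B6, a difference of -10.8 points (limma adjusted p = 2.96e-22). All B6 animals lay above the threshold, so the bin was a domain through the others. Its depth differed between the strains, at 4.77 reads per CpG in B6 and 15.5 in C3. The domain on chr4:146200001-146300000 differed by -9.99 points (limma adjusted p = 1.33e-18), with 23.1 reads per CpG in B6 and 14.2 in C3. The part of depth in these differences was not tested.

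Between dams and sires of both strains 815 domains were called (68.2%), 85 higher and 730 lower in dams, beside 70.4% of all bins (5.05% higher, 65.3% lower). The median difference was -1.45 points in domains and -1.03 points in all bins. On the log2 scale of the test the medians were close, at -0.0976 and -0.0954. After centring, 689 domains were called, beside 60.5% of all bins, 352 higher and 337 lower. Of all 23916 bins, 7346 were then called higher and 7121 lower. With dense windows kept, both in the choice of domains and in the counts tested, 127 were called (10.6%), beside 60.1% of all bins. Calls with at least 3 points were made in 101 domains, 88 of them lower in dams, beside 2.66% of all bins. Of the 413 domains that stayed low without their unmethylated CpGs, 343 were called (83.1%), 334 of them lower in dams, with a median difference of -2.26 points. Of the 782 that rose above the threshold without those CpGs, 472 were called (60.4%), 396 of them lower, with a median of -0.89 points. After centring 228 of the 413 (29 higher, 199 lower) and 461 of the 782 (323 higher, 138 lower) were called, which is 55.2% and 59.0%. The kinds were not tested against each other.

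The domain of Prlr, the receptor of the pregnancy and lactation hormone prolactin, had the largest fall in dams among called domains without overlap. In chr15:10100001-10200000 the dams had 62.7% at the lowest, 64.2% at the median and 65.2% at the highest, and the sires 73.3%, 74.1% and 75.1%. All dams lay below all sires, a difference of -10.1 points (log2 ratio -0.69 ± 0.03, limma adjusted p = 6.55e-28). Daughters had 68.1%, 69.9% and 70.9%, between the dams and the males. All males lay above the threshold of 71.6%, so the bin was a domain through the females. The difference of dams from daughters was -5.71 points (limma adjusted p = 2.58e-15), and that of daughters from sons was -3.82 points (limma adjusted p = 1.06e-10).

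The domain of Cabyr and Ttc39c (chr18:12800001-12900000) moved the other way. Dams had 69.1% to 71.4% and sires 44.7% to 55.7%, a difference of 19.6 points (limma adjusted p = 2.54e-10). Daughters had 67.2% to 71.1% and sons 47.4% to 54.0%, a difference of 18.6 points (limma adjusted p = 3.17e-08). Thus females of both generations lay above all males. A dense window in it (chr18:12848001-12848500) was 31.3 points higher in dams (limma adjusted p = 6.78e-07).

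The domain of Podn, a matrix proteoglycan, and Scp2, a sterol carrier, was 10.3 points higher in dams (chr4:107700001-107800000, limma adjusted p = 1.85e-16) and 7.92 points higher in daughters than sons (limma adjusted p = 1.91e-12). A further domain lower in dams lay at chr7:9300001-9400000 (-4.02 points, limma adjusted p = 0.000148) and had 6.17 reads per CpG.

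**Figure D5:**
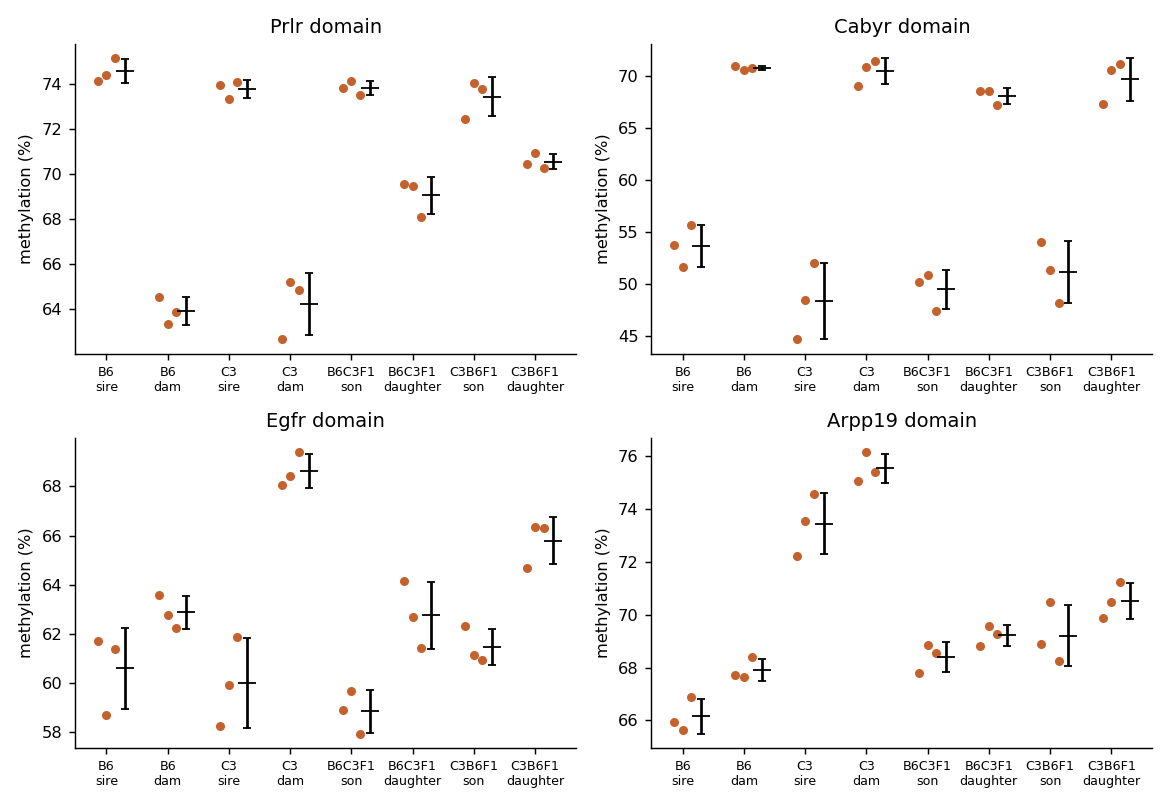
Methylation (%) of 4 domains in every animal by group, with mean and SD of 3 animals: Prlr, Cabyr, Egfr and Arpp19. Prlr is lowest in dams with daughters between, Cabyr is higher in all females than in all males, Egfr is highest in C3 dams, and Arpp19 is higher in C3 parents than in B6 parents with the F1 means between.

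Within single strains the calls were similar in number. In B6, 688 domains were called between dams and sires (39 higher, 649 lower), beside 59.2% of all bins (2.75% higher, 56.5% lower). In C3, 674 were called (82 higher, 592 lower), beside 59.3% (4.11% higher, 55.2% lower). After centring, 303 domains were called in B6 (169 higher, 134 lower), beside 36.8% of all bins (4642 higher, 4158 lower). In C3, 587 were called after centring (327 higher, 260 lower), beside 45.4% (5542 higher, 5310 lower). Calls with at least 3 points were made in 77 domains in B6 (6.44%), beside 2.81% of all bins, and in 190 in C3 (15.9%), beside 5.16%. The domain of Cntnap2, a neural adhesion gene, differed by -4.32 points between B6 dams and sires (chr6:45000001-45100000, limma adjusted p = 2.54e-07), and that of Vmn2r34 by -5.34 points between C3 dams and sires (chr7:7600001-7700000, limma adjusted p = 2.79e-09). In the lowest bin of chromosome 1, with the mitochondrial match, C3 dams had 33.5%, 34.0% and 35.1% and C3 sires 15.7%, 16.7% and 17.5% (limma adjusted p = 0.00385).

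The dam-sire difference itself differed between strains in 6 domains, 3 in each direction, beside 0.0836% of all bins (20 bins, 0.0376% higher and 0.046% lower). After centring 6 were called as well, 2 higher and 4 lower, beside 0.117% of all bins (12 higher, 16 lower). The quasi-binomial model of the counts called 0, leaving out single animals gave 2 (without B6 sire 1, B6 dam 2, C3 sire 2 or C3 dam 2) to 9, and 165 of 1195 domains had an unadjusted p below 0.05, beside 1519 of 23916 bins. At the domain of Egfr, the epidermal growth factor receptor (chr11:16600001-16700000), C3 dams had 68.1%, 68.4% and 69.4% and C3 sires 58.2%, 59.9% and 61.9%, while B6 dams had 63.6%, 62.8% and 62.3% and B6 sires 61.7%, 58.7% and 61.4%. The dam-sire difference was 6.35 points larger in C3 (limma adjusted p = 0.00339). The difference was also more positive in C3 at Adk (4.37 points, a call lost after centring, limma adjusted p = 0.0546) and Clec2d (3.88 points), and more negative in C3 at Vmn2r38 (-4.20 points), Nlrp4d (-4.07 points) and Vmn2r45 (-3.87 points). At Nlrp4d all 3 C3 sires lay above the threshold, so the bin was a domain through the others, and at Vmn2r38 and Vmn2r45 2 of the 3 C3 sires did. At these 3 domains the dams lay below the sires in both strains by group means, and farther below in C3. At Vmn2r38 C3 dams had 66.6% ± 0.362 and C3 sires 71.8% ± 1.32, against 68.0% ± 0.686 in B6 dams and 68.9% ± 0.932 in B6 sires (SD, n = 3 each).

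Dams differed from their virgin F1 daughters at 529 domains (35 higher, 494 lower), beside 49.7% of all bins (1.19% higher, 48.5% lower). After centring 186 were called, 127 higher and 59 lower, beside 17.8% of all bins (2265 higher, 2003 lower). Calls with at least 3 points were made in 8 domains, beside 0.0669% of all bins. Ass1, a urea cycle enzyme, lay in a domain 4.67 points higher in dams (chr2:31300001-31400000, limma adjusted p = 0.000836), with dams at 65.0% to 67.7% and daughters at 58.3% to 64.2%. Cps1, the first enzyme of that cycle, lay in a domain 2.94 points higher in dams (chr1:67200001-67300000, limma adjusted p = 0.000783). The domain of Gpam, a glycerolipid synthesis enzyme, was lower in dams, by -3.41 points (chr19:55100001-55200000, limma adjusted p = 3.62e-07).

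Sires and sons differed at 68 domains (67 higher in sires), beside 5.75% of all bins (5.58% higher, 0.171% lower), and after centring at 10, beside 1.61%. Leaving out C3B6F1 son 2 left 7, and leaving out C3 sire 1 gave 151. Among calls with no overlap of animals the largest difference was 1.36 points at olfactory receptor genes Olfr1500 to Olfr1505 (chr19:13900001-14000000, limma adjusted p = 0.0188), a call lost after centring (limma adjusted p = 0.0771). Daughters and sons differed at 61 domains (33 higher, 28 lower), beside 4.19% of all bins (1.93% higher, 2.26% lower). After centring 66 were called (49 higher, 17 lower), beside 5.08% of all bins (855 higher, 360 lower). Of the calls, 10 had at least 3 points, beside 0.105% of all bins. Leaving out C3B6F1 son 3 left 32, and leaving out C3B6F1 son 2 gave 122. The domain of the complement gene C3 and Tnfsf14 was lower in daughters, by -3.02 points (chr17:57300001-57400000, limma adjusted p = 1.84e-05). The 2 crosses differed at 5 domains (4 higher, 1 lower in C3B6F1), beside 0.87% of all bins (0.0627% higher, 0.807% lower). Leaving out C3B6F1 daughter 3 left 1, and leaving out C3 sire 1 gave 16. Centring gave 16 (15 higher, 1 lower), beside 0.481% of all bins (73 higher, 42 lower). Zfp184 and Pom121l2 lay in the domain that was lower in C3B6F1, by -2.32 points (chr13:22000001-22100000, limma adjusted p = 0.00265).

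CpG-dense windows in domains, whose own CpGs were not counted in the choice, were tested in the same way. Between strains 954 of 9104 were called (691 higher, 263 lower in C3), beside 8.99% of all windows (5.82% higher, 3.17% lower). Among these calls the largest difference was at chr1:172974501-172975000, 20316 bp from the nearest coding start, that of Fcgr3. The window had 57.5% to 90.7% in C3 and 0% to 0.860% in B6 animals (limma adjusted p = 7.94e-12), and F1 animals between 5.73% and 23.2%. A window 16416 bp from the nearest coding start, that of Vasp, differed by -52.5 points. Another, 33499 bp from that of Wnt7b, a signalling ligand, differed by -48.7 points. Between dams and sires 37 were called (25 higher, 12 lower), beside 0.393% of all windows (0.233% higher, 0.16% lower). A window 7763 bp from the start of Gcgr, the glucagon receptor, was 17.1 points higher in dams (limma adjusted p = 0.00108). Another, 5117 bp from the Sbk1 start, differed by -26.5 points.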

How the data were processed

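Whole-genome bisulfite data of 24 livers were used. The authors aligned the reads to mm9 with Bismark 0.7.8 on Bowtie 0.12.8, removed duplicates, merged the libraries of an animal, and deposited methylated and unmethylated read counts at 18887127 autosomal CpGs present in both strains and the reference. Reads of both strains met the same reference, and the median depth of domains was 28.6 reads per CpG in B6 and 25.6 in C3. Autosomal depth was 19.4 to 32.8 reads per CpG and animal. PCR reads without molecular identifiers are not independent molecules, so read shares cover counting error only.

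Counts were summed per 100-kb bin. The log2 ratio of methylated to unmethylated counts (pseudocount 1) was fitted with limma 3.58.1 (R 4.3.3; trended, robust) with 8 group means, and p-values were adjusted by Benjamini-Hochberg over the 23916 bins with at least 100 counts in every animal. CpG-dense windows needed 30 counts in every animal. Points are differences of percent methylation. A given log2 difference makes more points in a partly methylated bin than in a highly methylated one. Points, and calls with a minimum in points, are therefore not on the scale of the test. Code was tested on simulated data. Gene models came from GENCODE on NCBIM37, the build of the files. FOXA1 ChIP samples were not used here.

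Domains named are the 10 lowest, the longest runs, those at the threshold and, per comparison and direction, the 2 largest called with no overlap of animals (3 for the difference between strains). Members and gene lists were chosen with earlier results of these data known. Replicate numbers were not used to pair animals. Over 84 same-number pairs r ran from -0.184 to 0.339, with 17 above 0.1. Pairs of different numbers were not compared, so these values cannot tell whether the numbers mark families. Animals of a group came from separate families, but groups compared share families. The labels do not say which animals form a family, so the fits took all animals as unrelated. Alternatives were other models, scalings, filters and bin choices.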

Additional observations from a re-analysis of the deposited data

Results flagged for a closer look

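Among 76 values tested for an animal far from the rest of its strain or cross, 3 were flagged, where chance gives about 5%. In the lowest domain (chr1:24600001-24700000, with the mitochondrial match) daughter 1 of B6C3F1 had 24.4%, against 11.6% to 13.9% in the other animals of that cross. In the same domain son 1 (27.5%) and daughter 1 (29.5%) of C3B6F1 also stood far from the other animals of their cross (13.5% to 15.2%), which the rule for a single animal cannot mark. In the domain over Tcfap2b (chromosome 1 from 19200001) C3 dam 2 had 44.0%, against 45.2% to 45.9% in the other C3 animals. In the immunoglobulin run on chromosome 12 daughter 2 of B6C3F1 had 64.9%, against 65.8% to 66.3% in the others.

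The dam-sire difference differed between strains in 6 domains by a test of the interaction. The difference of dams minus sires was more positive in C3 by 6.35 points at Egfr, 4.37 points at Adk and 3.88 points at Clec2d. It was more negative in C3, by -4.20 points at Vmn2r38, -4.07 points at Nlrp4d and -3.87 points at Vmn2r45, where dams lay farther below sires in C3.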

How the results depend on the processing

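Counts of called domains are given in the order strain, dams and sires, B6 dams and sires, C3 dams and sires, the dam-sire difference between strains, dams and daughters, sires and sons, daughters and sons, and crosses, whose main counts were 734, 815, 688, 674, 6, 529, 68, 61 and 5. A minimum of 3 points left 77, 101, 77, 190, 6, 8, 1, 10 and 0. With no window left out, in the choice of domains or in the counts tested, the calls over 1196 domains were 268, 127, 296, 86, 0, 31, 0, 3 and 0. The first 2 were 22.4% and 10.6% of those domains beside 53.4% and 60.1% of all bins. For the other comparisons the share of all bins under this setting is not given, so their counts cannot be set against all bins. Taking the lowest 2% of bins gave 269, 266, 209, 208, 155 (dams and daughters), 15, 28 and 2, and the lowest 10% gave 1550, 1814, 1591, 1567, 1303 (dams and daughters), 162, 123 and 10. These counts are over 478 and 2391 bins. By strain they were 56.3% and 64.8% of the bins chosen, against 61.4% in the domains described and 67.6% of all bins, and for dams and sires 55.6% and 75.9%, against 68.2% and 70.4%. Centring gave 449 by strain, 303 in B6, 186 for dams and daughters, 10 for sires and sons and 16 for crosses. The quasi-binomial model gave 0 for the dam-sire difference between strains, 13 for sires and sons, 30 for daughters and sons and 1 for crosses. Bins shifted by 50 kb gave 2 for the difference between strains and 15 for crosses, leaving out windows of 10 or more CpGs gave 112 for sires and sons and 9 for crosses, and leaving out CpGs within 50 bp of an SNV gave 3 for the difference between strains. For the quasi-binomial model, the shifted bins and these filters the share of all bins called is not given. Their counts therefore cannot be set against all bins. The cause of these changes was not tested.

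The replicate block, fitted although the numbers were not known to pair animals, gave 11 for crosses and changed no other count by over 1.5 times. With the replicate block and centring, added after seeing the data, the counts were 460 by strain, 322 in B6, 209 for dams and daughters, 14 for sires and sons and 23 for crosses. The share of all bins called with the block is not given.

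Leaving out single animals moved some counts. The share of all bins called in these fits is not given, so a change cannot be told to be particular to the domains. For the dam-sire difference between strains the count ran from 2 to 9, with 2 without B6 sire 1, 2 without B6 dam 2, 2 without C3 dam 2, 2 without C3 sire 2, 3 without B6 dam 3, 3 without B6 dam 1. For sires and sons the count ran from 7 to 151, with 7 without C3B6F1 son 2, 11 without C3 sire 2, 13 without B6 sire 2, 15 without B6C3F1 son 2, 27 without C3 sire 3, 28 without B6 sire 1, 108 without B6 sire 3, 125 without C3B6F1 son 3, 151 without C3 sire 1. For daughters and sons the count ran from 32 to 122, with 32 without C3B6F1 son 3, 38 without B6C3F1 daughter 2, 40 without B6C3F1 son 3, 40 without C3B6F1 daughter 3, 122 without C3B6F1 son 2. For the crosses the count ran from 1 to 16, with 1 without C3B6F1 daughter 3, 2 without B6C3F1 daughter 1, 2 without B6C3F1 son 2, 8 without B6 sire 2, 12 without C3B6F1 son 1, 14 without B6C3F1 daughter 2, 16 without C3 sire 1. The ranges were 670 to 749 for strain, 765 to 821 for dams and sires, 544 to 695 for B6 dams and sires, 626 to 689 for C3 dams and sires, 425 to 582 for dams and daughters, 797 to 971 for dense windows by strain, 25 to 39 for dense windows by dam and sire.

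The lowest 2% were 478 bins at 63.7% in 381 runs, 20.7% without a coding start, and the lowest 10% were 2391 bins at 70.0% in 1491 runs, 40.0% without a coding start. Leaving out windows of 10 or more CpGs gave domains at 68.6%, 37.5% without a coding start, and shared 76.3% with the domains described. With no window left out the domains were at 57.0%, 6.02% lacked a coding start, and 45.2% of the domains described were chosen again. Without domains of odd depth (under 10 or over 60 reads per CpG) or 1000 or more bases of mitochondrial match, a choice made after seeing the data, 1131 domains remained at 67.8%, and no count of calls moved by over 1.5 times. Of the alternatives run, 371 kept the main value within its limits and 92 did not. Low depth limits the 54 domains under 10 reads per CpG, and reads shared between copies, which were not measured, could affect the multicopy families.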
